A study of Mus musculus with 2 samples.

Results

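The expression of 40 genes of the cell cycle and of DNA replication was described in the cerebellar granule cell layer of the mouse. The genes were taken as a list of symbols, and every probe set whose platform annotation gave 1 of these symbols alone was used. Of the 40 genes, 39 were measured, by 90 of the 45101 probe sets on the array, among 18194 named genes in all. Ccnb1, which encodes a mitotic cyclin, had no such probe set. The study holds 1 group of 2 samples, called sample 1 and sample 2 here, both from the cerebellum of intact male C57BL/6J mice of 8 weeks. The granule cell layer was cut by laser from frozen sections of 12 μm, and total RNA of about 1 ng went through 2 cycles of amplification and was hybridized to Affymetrix GeneChips. Both titles name animal 1, so the spread between the 2 samples may be technical, and no comparison between groups or p-value was possible. A captured layer holds several cell types, and fewer cells of a type and less RNA per cell cannot be told apart in such samples.

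A cell that divides passes through G1, copies its DNA in S phase, and separates the copies in mitosis. Cyclin-dependent kinases (CDKs), switched on by cyclins and held back by CDK inhibitors, drive these steps, and E2F factors restrained by the retinoblastoma protein control many S phase genes. Granule neurons arise from dividing progenitors in early postnatal life and are postmitotic in the adult, when the granule cell layer holds mostly these small neurons together with interneurons and glia.

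The deposited values are signal intensities on a linear scale, 1 per probe set and array. The brightest probe set stood for a gene. A gene is called above background when its intensity exceeded, in both samples, the 95th percentile of 96 genes typical of other organs, which was 12.6 in sample 1 and 17.5 in sample 2. For single probe sets the same threshold over 144 probe sets of these genes was 10.9 and 15.0. Intensities of different probe sets depend on the probes and are not compared as amounts of RNA. All 18 granule neuron markers examined were above background, among them Gabra6 (8189 and 8327) and Zic1 (6792 and 6716). So were 7 of 8 Purkinje cell, 9 of 11 astrocyte, 7 of 9 oligodendrocyte, 7 of 12 endothelial and pericyte and 4 of 11 microglial genes. Of 9 genes of granule cell progenitors 2 passed, the hedgehog receptor gene Ptch1 (313 and 348) and Ccnd1 (95.4 and 101), while the progenitor factor Atoh1 had 1.9 and 8.4.

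Of the 39 measured cell cycle genes, 15 (38.5%) were above background in both samples, against 44.8% of all 18194 named genes. The share differed by role. Genes acting in G1 and in replication licensing passed in several cases, and those acting in G2 and mitosis did not. Grouped after their values were seen, 0 of 16 measured genes of G2 and mitosis passed, against 15 of the 23 remaining ones. At the 99th percentile of the background genes 9 of 39 passed, against 31% of all genes. With olfactory receptor genes as the background 22 of 39 passed (56.4%), against 52.5% of all genes. The order of these shares thus depended on the background used.

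**Figure D1:**
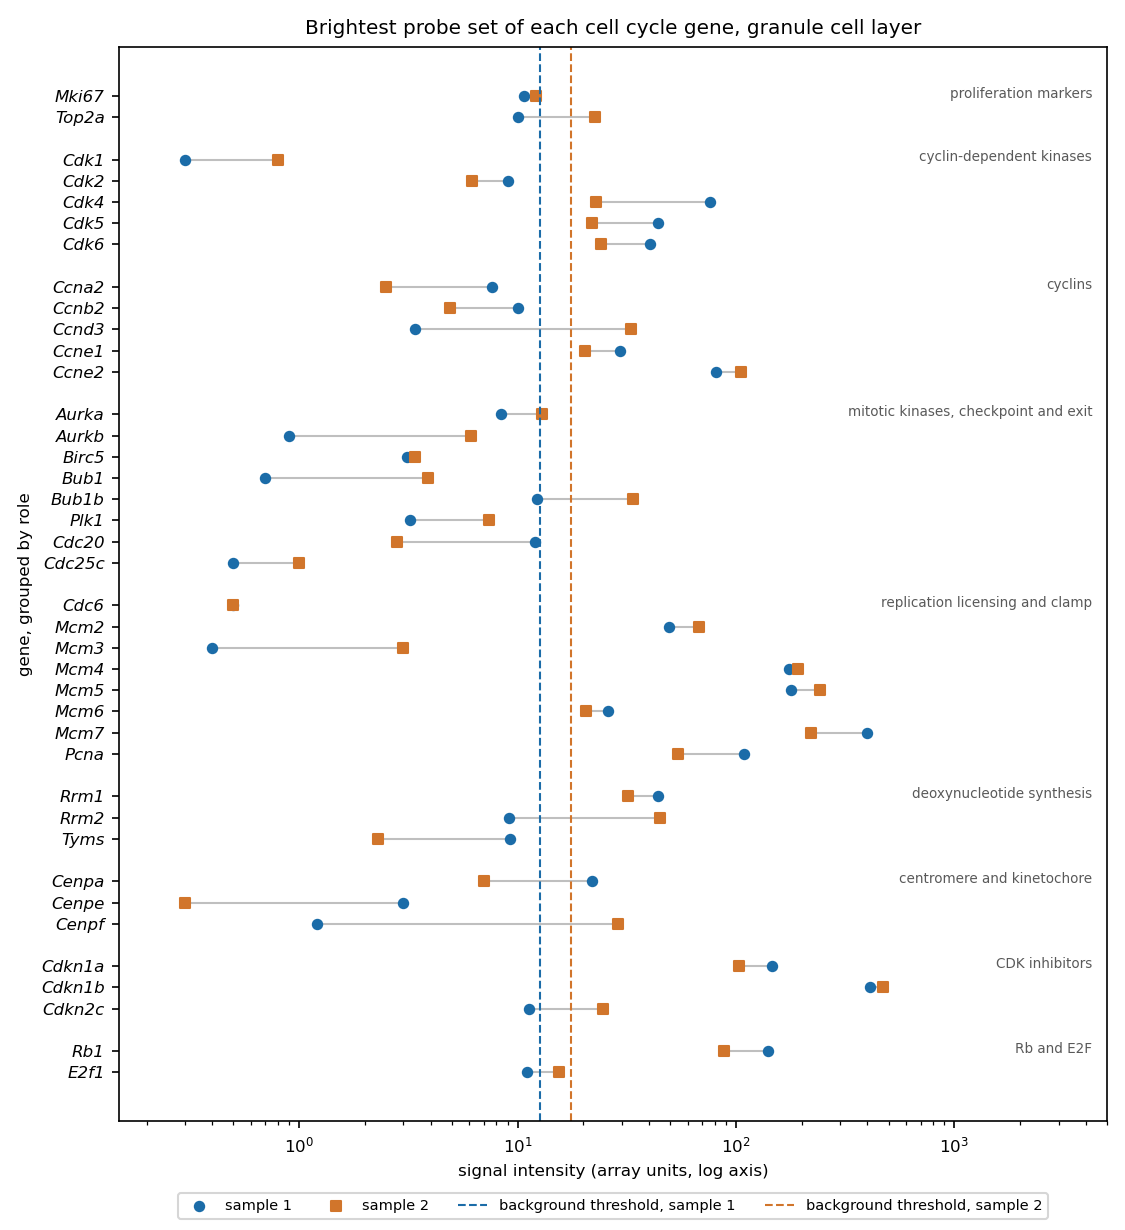
Signal intensity of the brightest probe set of each of 39 genes (horizontal log axis, array units) in sample 1 (circles) and sample 2 (squares), joined by a line and grouped by role, with dashed lines at the thresholds of 12.6 and 17.5. The genes whose points both lie right of their sample's line number 15, and none of the mitotic kinases, centromere genes or proliferation markers is among them.

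The 2 proliferation markers were not above background in both samples. Mki67, which encodes the Ki-67 antigen of cycling cells, had 10.7 in sample 1 and 12.1 in sample 2 on its 1 probe set. Top2a, the DNA topoisomerase that untangles chromosomes before they separate, had 10.0 and 22.5. Sample 2 alone passed for Top2a, and its other probe sets had 1.0 and 1.5, and 5.9 and 17.4. For Mki67 both values lay under the threshold.

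Among the genes of mitotic kinases, the spindle checkpoint and mitotic exit, 0 of 8 passed. Plk1, a kinase of mitotic entry, had 3.2 in sample 1 and 7.4 in sample 2. Aurka, the spindle pole kinase, had 8.4 and 12.9, and Aurkb, the kinase of the chromosomal passenger complex, 0.9 and 6.1. Birc5, which encodes survivin of that same complex, had 3.1 and 3.4. These values lay below the threshold of their sample throughout.

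The checkpoint kinase gene Bub1 had 0.7 and 3.9. Its relative Bub1b, which encodes the checkpoint protein BubR1, had 12.3 in sample 1 and 33.7 in sample 2. That probe set passed the limit for single probe sets in both samples and the limit for genes in sample 2, while the other probe sets of Bub1b had 4.6 and 7.1, and 0.7 and 9.9. Cdc20, the activator of the ubiquitin ligase that starts anaphase, had 12.0 and 2.8, and Cdc25c, the phosphatase that activates Cdk1, 0.5 and 1.0. No gene of this set was therefore above background in both samples, and Bub1b was the one that passed in either.

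The centromere and kinetochore genes gave 0 of 3. Cenpa, the centromeric histone H3 variant, had 21.9 in sample 1 and 7.0 in sample 2. Cenpf, a kinetochore protein that accumulates in G2, had 1.2 and 28.8. Its other probe sets had 4.5 and 3.3, and 5.7 and 4.7. Cenpe, a kinetochore motor protein, had 3.0 and 0.3. Cenpa thus passed in sample 1 and Cenpf in sample 2, and the samples lay on opposite sides for these 2 genes.

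Of the mitotic cyclins and their kinase, none passed. Ccna2, the cyclin of S phase and G2, had 7.6 in sample 1 and 2.5 in sample 2, and the mitotic cyclin gene Ccnb2 had 10.0 and 4.9. Cdk1, the kinase that drives mitosis, was at 0.3 and 0.8 on its 1 probe set. The absence of a call does not show that no transcript was present, since it rests on the brightness of these probes. With 39 olfactory receptor genes as the background in place of the organ genes, 4 of the 16 genes of G2 and mitosis passed, namely Mki67, Top2a, Aurka and Bub1b, as did 52.5% of all genes.

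Promoters of these genes are shown because most, though not all, of the mitotic genes hold a motif that few of the others hold. The RefSeq promoter table (GRCm38.p6, 250 bases before to 50 after each gene start) matched 33 of the 40 genes by symbol. Ccna2, Ccne2, Cdk5, Cdc25c, Aurkb, Mcm4 and Rb1 were not analysed here in this respect. The cell cycle genes homology region (CHR), an element known from promoters of late cell cycle genes, was searched as TTTGAA and TTTCGAA on both strands. It was found in 10 of 14 genes of G2 and mitosis (71.4%) and in 2 of 19 of the remaining ones (10.5%), against 20.9% of all 27025 genes of the table. Below, 30 bases around 1 match are given 5′ to 3′ along the gene's strand, with the match in capitals.
Mki67 (chr7:135716460-135716489, minus strand): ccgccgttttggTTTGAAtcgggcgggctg
Ccnb2 (chr9:70421533-70421562, minus strand): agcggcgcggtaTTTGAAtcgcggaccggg
Cdc20 (chr4:118437344-118437373, minus strand): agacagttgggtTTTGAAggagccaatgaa
Plk1 (chr7:122159453-122159482, plus strand): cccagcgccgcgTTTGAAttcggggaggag
Cenpf (chr1:189688067-189688096, minus strand): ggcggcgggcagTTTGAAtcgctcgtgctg
Cdk1 (chr10:69352910-69352939, minus strand): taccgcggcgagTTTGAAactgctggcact

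A match is a description of the letters and not a measured binding site. In Cdc20 the match began 18 bases before the gene start, in Cdk1 15 bases before it, in Ccnb2 at base 5 after it and in Cenpf at base 3. The CCAAT box, searched as CCAAT on both strands, was found in 13 of the 14 genes of G2 and mitosis (92.9%), in 12 of the 19 remaining ones (63.2%) and in 41.1% of all genes. None of the CHR matches overlapped a CCAAT match. Of the genes measured and matched, 2 of 11 above background (18.2%) and 10 of 21 not above it (47.6%) held a CHR match. These 10 are the same genes of G2 and mitosis as above, none of which passed. The split therefore restates that grouping and is no further result.

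The cyclin-dependent kinases differed in whether they passed. Of 5 genes, 3 were above background, and these were not the kinases of S phase and mitosis. Cdk4, which pairs with D-type cyclins in G1, had 76.0 in sample 1 and 22.9 in sample 2. A second of its 3 probe sets also passed, with 47.4 and 24.7. Its partner in this role, Cdk6, had 40.4 and 24.1 on 1 of 3 probe sets, the others reading 0.3 and 0.5, and 1.0 and 5.4. In both genes sample 1 was the higher.

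Cdk5, a kinase of postmitotic neurons that is activated by the non-cyclin proteins of Cdk5r1 and Cdk5r2, had 44.1 in sample 1 and 21.8 in sample 2. Another probe set of Cdk5 had 46.8 and 1.2, and the third 7.5 and 0.5, so its call rests on 1 of 3. Cdk2, which pairs with cyclins E and A, had 9.0 and 6.2 and was below threshold in both samples. None of the 5 kinase genes passed at the 99th percentile. With a gene's probe sets averaged, Cdk4 alone did.

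Among the cyclins, 2 of 5 measured genes were above background, both of them E-type cyclins of the G1 to S transition. Ccne2 had 80.8 in sample 1 and 105.5 in sample 2 on its 1 probe set. Ccne1 had 29.4 and 20.3 on a probe set of the _x_at kind, whose probes can match other sequences, while its _at probe set had 2.5 and 5.0. Ccnd3, a D-type cyclin, had 3.4 and 32.9. Its 3 probe sets disagreed, since a second had 5.5 and 23.7 and the third 14.9 and 0.8, which is higher in sample 1.

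Genes of replication licensing and of the sliding clamp gave 6 of 8. The MCM helicase is loaded on DNA in G1 as a ring of the products of Mcm2 to Mcm7, and 5 of these 6 genes passed. Mcm4 had 174.6 in sample 1 and 192.3 in sample 2, and its other probe set 73.0 and 61.3, so both of its probe sets were above background. Mcm7 had 396.1 and 220.6, with 3 of its 4 probe sets above. These 3 are of kinds that can match other sequences (_x_at) or several transcripts (_s_at). The remaining Mcm7 probe set had 6.6 and 4.7. Sample 1 was the higher for Mcm7, and sample 2 for Mcm4.

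Mcm5 had 178.1 in sample 1 and 242.8 in sample 2 on an _x_at probe set, while its _at probe sets had 1.7 and 10.3, and 7.5 and 0.3. Mcm2 had 49.6 and 67.9 on an _s_at probe set, a kind that can match several transcripts, and 22.9 and 6.0 on its _at probe set. Mcm6 had 25.9 and 20.6 on 1 of 2 _x_at probe sets, and 5.2 and 1.2 on its _at probe set. Mcm3 was at background, with 0.4 and 3.0 on the brightest of 5 probe sets. Without the _x_at and _s_at probe sets, Mcm4 alone of the 6 helicase genes was above background, and in all 10 of 38 cell cycle genes passed, against 43.3% of all genes.

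Cdc6, the loader that brings the helicase to origins, was at 0.5 in both samples on its 1 probe set. Pcna, the clamp that holds polymerases on DNA, had 108.4 in sample 1 and 54.2 in sample 2, and passed in both. It acts in DNA repair as well as in replication.

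Promoters of the licensing genes are shown for the E2F motif, which more of them held. The motif was searched as TTTCCCGC, TTTGGCGC and TTTCGCGC on both strands. It was present in 7 of the 33 genes with a promoter (21.2%), against 2.12% of all genes of the table. Of 5 MCM genes 4 held it, and so did Cdc6, Cdk1 and Cdk2. The windows are drawn as above, with the match in capitals.
Mcm5 (chr8:75109345-75109374, plus strand): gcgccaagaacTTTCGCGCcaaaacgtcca
Mcm6 (chr1:128359734-128359763, minus strand): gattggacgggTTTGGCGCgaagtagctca
Mcm7 (chr5:138172030-138172059, minus strand): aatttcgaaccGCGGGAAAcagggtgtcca
Mcm3 (chr1:20820275-20820304, minus strand): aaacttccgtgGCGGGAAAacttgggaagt
Cdc6 (chr11:98908002-98908031, plus strand): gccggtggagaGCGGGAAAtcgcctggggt

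Matches were present both in genes above background (Mcm5, Mcm6 and Mcm7) and in genes that were not (Mcm3, Cdc6, Cdk1 and Cdk2). In all, 3 of 11 genes above background (27.3%) and 4 of 21 not above it (19.0%) held the motif. In Mcm5 and in Mcm6 a pair of matches on opposite strands overlapped by 4 bases, and in Mcm7 an E2F match shared 1 base with a CCAAT match. Cdk1 held both E2F and CHR matches. The 250 bases before its start (chr10:69352913-69353162, minus strand) are given with all E2F, CHR and CCAAT matches in capitals.
Cdk1: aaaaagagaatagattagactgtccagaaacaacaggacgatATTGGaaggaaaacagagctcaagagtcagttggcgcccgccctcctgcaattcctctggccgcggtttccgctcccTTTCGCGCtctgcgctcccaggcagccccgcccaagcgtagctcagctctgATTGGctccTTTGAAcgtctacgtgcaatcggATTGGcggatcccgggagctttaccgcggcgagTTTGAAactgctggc

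**Figure D2:**
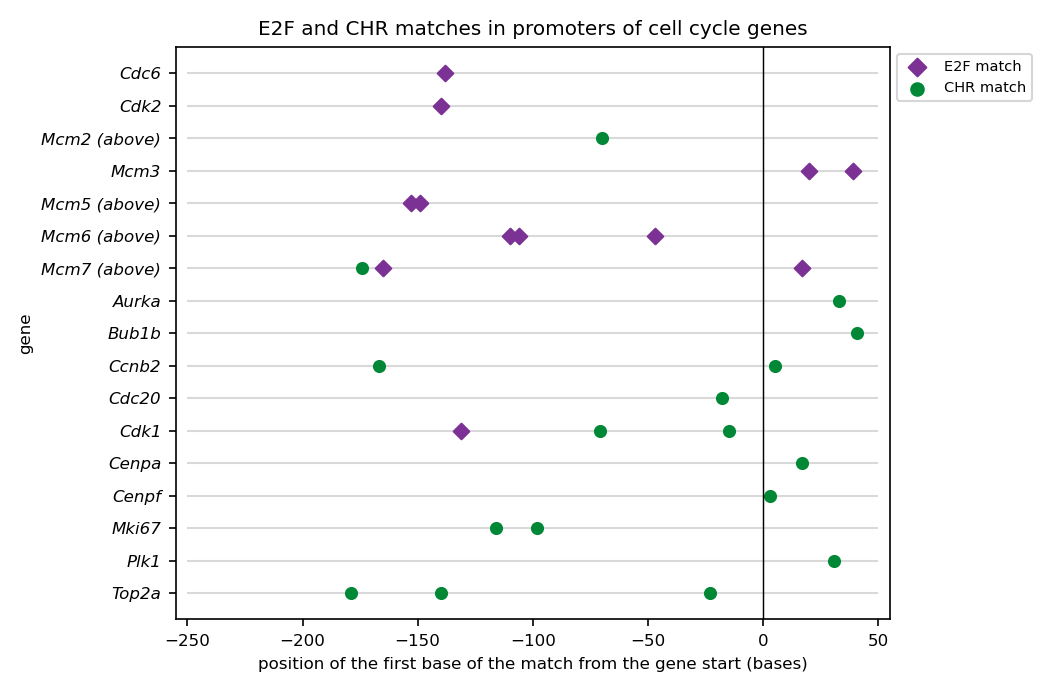
Position of E2F matches (diamonds) and CHR matches (circles) from 250 bases before to 50 after the start of the 17 genes with either (horizontal axis in bases), with "above" marking genes above background in both samples. The 10 genes of G2 and mitosis in the lower rows all hold a CHR match, and 6 of the 7 upper rows hold an E2F match.

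Of the genes for making deoxynucleotides, 1 of 3 passed. Rrm1, the large subunit of ribonucleotide reductase, had 44.1 in sample 1 and 32.0 in sample 2 on 1 of 3 probe sets. Rrm2, its small subunit made in S phase, had 9.1 and 44.8 on an _x_at probe set, and 0.7 and 2.8, and 0.5 and 7.1 on the others. Tyms, the thymidylate synthase gene, had 9.2 and 2.3 on the brightest of 4 probe sets. Rrm2 therefore passed in sample 2 alone, and Tyms in neither.

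Inhibitors of the cell cycle were above background in 2 of 3 cases. Cdkn1b, which encodes p27, an inhibitor known for holding cells out of the cycle, had 411.6 in sample 1 and 469.9 in sample 2. Its second probe set had 0.3 and 2.2. Cdkn1a, which encodes the p53-induced inhibitor p21, had 145.9 and 103.6, and 0.7 and 1.3 on its second probe set. Cdkn2c, which encodes p18, an inhibitor of Cdk4 and Cdk6, had 11.3 and 24.5 on its 1 probe set and passed as a gene in sample 2 alone. Both samples lay well above the threshold for Cdkn1b and Cdkn1a.

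Rb1, the retinoblastoma protein gene, had 140.5 in sample 1 and 88.4 in sample 2, and 0.2 and 0.8 on its second probe set. E2f1, the activator that Rb1 restrains, had 11.0 and 15.5 and was below the threshold for genes in both samples, though above that for single probe sets. Of all 39 genes, Ccne1 and Mcm6 lay closest above the gene thresholds, and Bub1b and Cdkn2c closest below them, through sample 1.

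**Figure D3:**
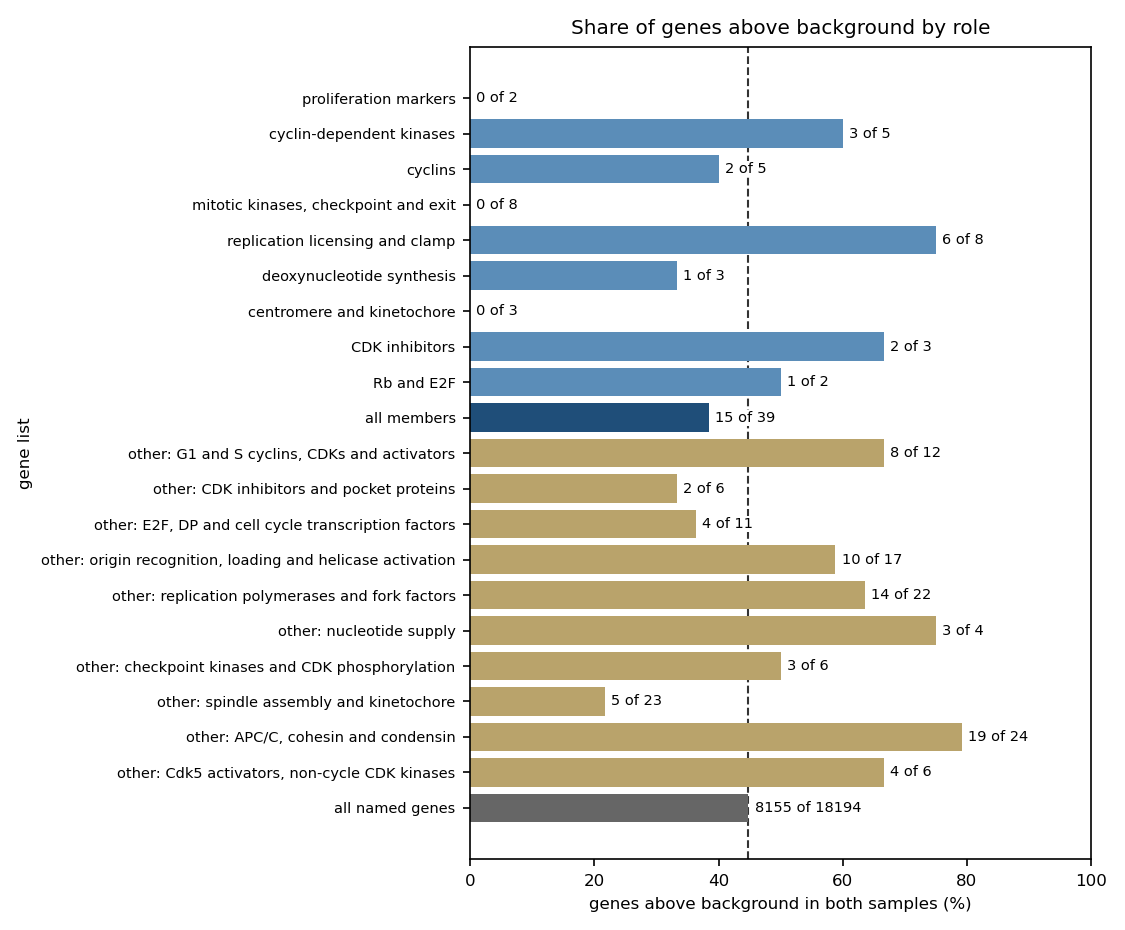
Share of genes above background in both samples (horizontal axis, percent) for the 9 roles of the cell cycle genes (light blue), all 39 of them (dark blue), 10 lists of other cell cycle genes (tan) and all 18194 named genes (grey, dashed line at 44.8%). Licensing genes (6 of 8) lie above the dashed line, and mitotic kinases (0 of 8) and spindle genes (5 of 23) lie below it.

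Several genes had probe sets that did not give the same call. Of their 90 probe sets 22 (24.4%) were above background in both samples, against 37.6% of all 34958 probe sets with 1 symbol. Among 30 genes measured by several probe sets, 14 (46.7%) were mixed, with 1 or more on each side of the limit, as were 4504 of all 9012 such genes. The share was 11 of 59 for _at probe sets (18.6%), against 34.0% of all such probe sets, and 6 of 15 for _x_at probe sets against 53.5%. For _a_at probe sets it was 1 of 10, against 44.7%, and for _s_at probe sets 4 of 6 (66.7%), against 57.4%. Of the 15 genes above background, Ccne1, Mcm2, Mcm5, Mcm6 and Mcm7 (5 genes) passed by _x_at or _s_at probe sets alone. Cdk4, Mcm4 and Mcm7 had 2 or more probe sets above, and the other 12 had 1.

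**Figure D4:**
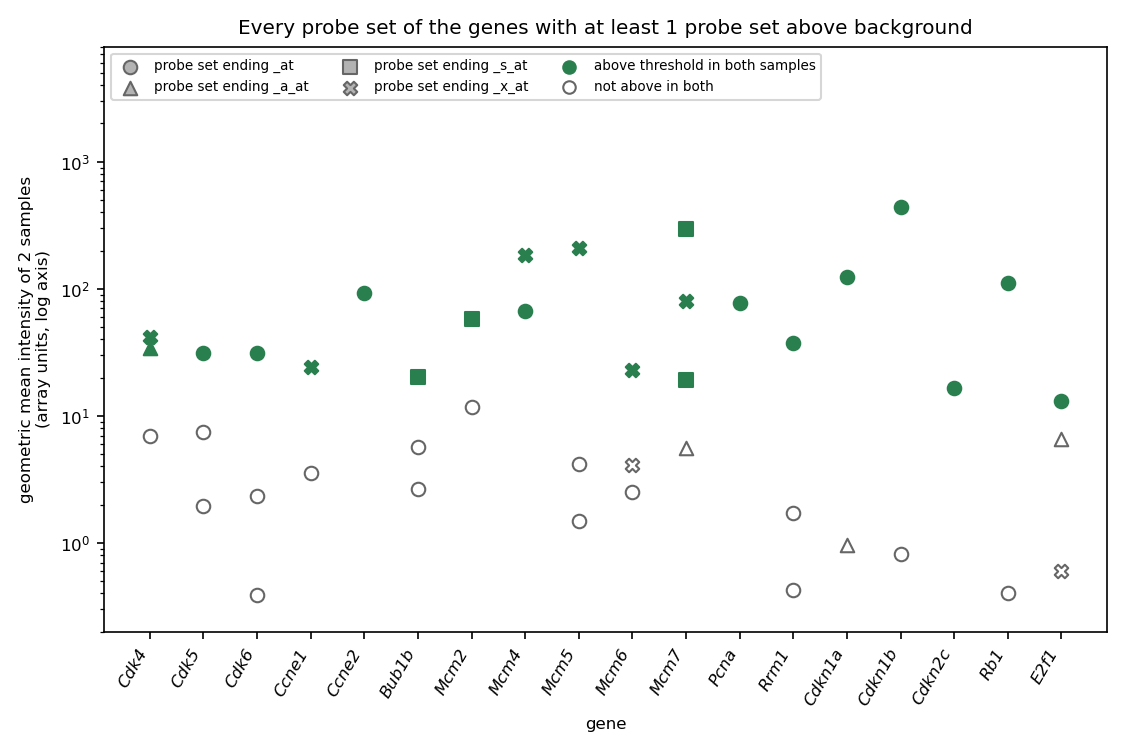
Geometric mean intensity over the 2 samples (vertical log axis, array units) of every probe set of the 18 genes with at least 1 probe set above background; filled symbols passed in both samples and the shape gives the kind of probe set. Cdkn1b, Cdkn1a and Rb1 each have 1 filled and 1 open symbol, and the filled symbols of Mcm2, Mcm5, Mcm6 and Mcm7 are all _s_at or _x_at.

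The 2 samples differed for some of these genes. With 1 array on each side these differences have no replicate check. In either sample or both, 22 genes passed. A 2-fold or larger difference toward sample 1 was found for 4 of them (18.2%), against 12.4% of all genes so chosen, and toward sample 2 for 6 (27.3%), against 11.7%. These 6 genes entered the count through sample 2 alone, so their direction follows from the filter, and of the genes above background in both samples 3 were 2-fold higher in sample 1 and 0 in sample 2. The matching share over all genes above background in both samples was not counted. The median log2 difference, sample 1 minus sample 2, was 0.10 over the 22 genes and −0.02 over all genes above background in at least 1 sample. The 4 genes higher in sample 1 were Cdk4, Cdk5, Pcna and Cenpa, with log2 differences of 1.73, 1.02, 1.00 and 1.65. The value of Cdk4 came from an _x_at probe set, and its other probe sets gave 0.94 and 1.60. Cenpa entered the count through sample 1 alone.

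Among the genes that passed in both samples, in sample 1 the intensity was higher for 10 of the 15 and in sample 2 for 5, with a median log2 difference of 0.49, against −0.08 over all genes above background in both. Cdkn1b (−0.19) and Mcm4 (−0.14) differed least. Cdk4 and Cdk5 reached 2-fold, as did Pcna, all toward sample 1.

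Genes that passed in sample 2 alone numbered 6 of 39 (15.4%), against 3.48% of all genes. These were Cenpf (a log2 difference of −4.58), Ccnd3 (−3.27), Rrm2 (−2.30), Bub1b (−1.45), Top2a (−1.17) and Cdkn2c (−1.12), a direction that passing in sample 2 alone largely sets. The other probe sets of Cenpf were slightly higher in sample 1, with log2 differences of 0.45 and 0.28. In sample 1 alone 1 gene passed, Cenpa (2.56%), against 8.07%. These counts moved with the threshold. At the 99th percentile 0 genes passed in sample 2 alone, against 0.94% of all genes, and 6 (15.4%) in sample 1 alone, against 11.4%. With the olfactory receptor background 2 passed in sample 2 alone (5.13%), against 6.23%, and 5 in sample 1 alone (12.8%), against 8.52%. Under both settings the larger count was that of sample 1. At the 90th percentile the larger count was that of sample 2, with 4 genes (10.3%), against 4.41% of all genes. In sample 1 alone 3 passed there (7.69%), against 8.74%.

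Markers of oligodendrocyte precursors, glial cells that still divide in the adult brain, were set beside these genes. Of 7 measured genes 1 passed in both, Sox10 (22.5 in sample 1 and 36 in sample 2). The summed intensity of the list was 67.9 in sample 1 and 130.5 in sample 2. Pdgfra had 5.4 and 39.7, Gpr17 4.0 and 19.3, and Cspg4 1.3 and 14.9, and 2 of the 7 passed in sample 2 alone. Vcan passed in sample 1 alone (23.9 and 8.6). No marker of the list was at 0. The part of these cells in the genes that passed in sample 2 alone was not tested. Sums over some other lists were also higher in sample 2, at 513 and 657 for the background genes of other organs and 1172 and 1568 for Purkinje cell genes. Those over oligodendrocyte genes (8044 and 7695) and over the 39 cell cycle genes (2105 and 1967) were higher in sample 1. The order of the cell cycle sums rests on 1 gene, Mcm7 (396.1 and 220.6), without which it is reversed. Of the granule cell progenitor genes 3 passed in sample 1 alone and 0 in sample 2 alone. The sum over microglial genes was 632 and 925, with Itgam at 0.5 and 0.3, and that over endothelial and pericyte genes 1616 and 1677.

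**Figure D5:**
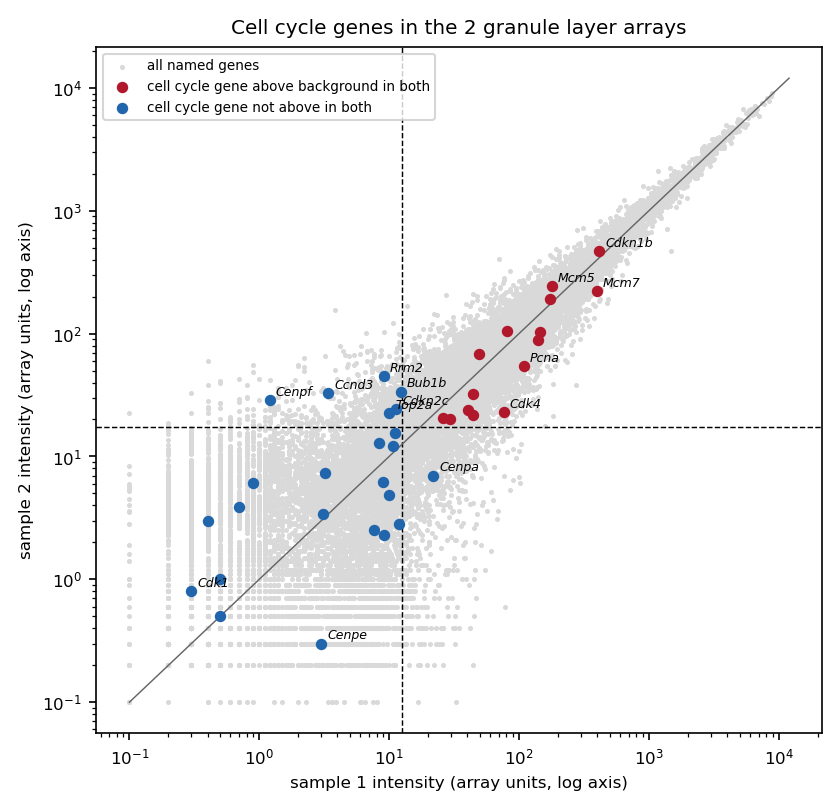
Intensity in sample 2 (vertical log axis) against sample 1 (horizontal log axis) for all named genes (grey) and the 39 cell cycle genes, in red where above background in both samples and in blue otherwise, with dashed thresholds and a line of equality. Cenpf, Ccnd3 and Rrm2 lie in the upper left field, which holds genes that passed in sample 2 alone, and Cenpa in the lower right one.

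The rest of the pathway was examined with 10 lists of other cell cycle and replication genes. Of 131 measured genes 72 (54.96%) were above background, against 44.8% of all genes. In the list of spindle assembly and kinetochore genes 5 of 23 passed. Bub3, a checkpoint protein, had 901 in sample 1 and 1060 in sample 2, Incenp, the scaffold of the passenger complex, 329 and 336, and Mad2l1, a checkpoint protein, 69.0 and 102. Incenp was not above background without _x_at and _s_at probe sets. Cenph (1.1 and 0.8) and Mad1l1 (0.7 and 0.8) did not pass. This was the lowest share among the 10 lists.

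Subunits of the anaphase-promoting complex (APC/C), of cohesin and of condensin passed in 19 of 24 cases. The securin gene Pttg1 had 1273 and 1426, the APC/C subunit gene Anapc5 890 and 1020, and the cohesin subunit gene Stag2 682 and 827. Both APC/C and cohesin are known to act in postmitotic cells as well. The condensin subunit genes Ncapg (0.2 and 3.7) and Ncaph (9.5 and 1.3) were not above background.

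Among genes that recognise origins and activate the helicase, 10 of 17 passed. They included the licensing factor Cdt1 (168 and 248), the kinase Cdc7 (109 and 164) and Orc2 of the origin recognition complex (113 and 120). Gins2 (2.0 and 4.8) and Gins1 (0.4 and 25.4), subunits of the active helicase, did not pass in both. Replication polymerases and fork factors passed in 14 of 22 cases, with the single-strand binding protein gene Rpa1 at 1386 and 1745, the flap nuclease Fen1 at 481 and 351 and the primase subunit Prim1 at 196 and 212. Fen1 did not pass without _x_at and _s_at probe sets. The polymerase gene Pole (4.0 and 0.4) and Rpa2 (39.2 and 1.0) were not above background in both. Many of these proteins serve DNA repair too.

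Nucleotide supply genes passed in 3 of 4 cases. Dck, a salvage kinase, had 312 and 320, Rrm2b, the p53-induced reductase subunit used outside S phase, 48.9 and 120, and the dUTPase gene Dut 66.8 and 83.1. Tk1, the thymidine kinase of S phase, had 0.3 and 0.7. Checkpoint kinases and kinases acting on CDKs passed in 3 of 6 cases, Wee1 (35.1 and 53.1), Atm (26.1 and 40.4) and Chek2 (15.9 and 25.3). Chek1 (46.4 and 2.8) and Atr (27.3 and 7.0) passed in sample 1 alone.

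Of 12 other cyclins, CDKs and activators 8 passed, among them Ccnh (777 and 896) and Cdk7 (146 and 87.7) of the CDK-activating kinase, which also serves transcription, and the D-type cyclin Ccnd1. Ccna1 (0.5 and 0.2), a cyclin of the germ line, and Ccnf (13.8 and 8.0) did not pass in both. Of 11 E2F, DP and other transcription factors 4 passed, including the dimer partner gene Tfdp1 (88.7 and 100) and the repressor genes E2f5 (89.2 and 85.9) and E2f6 (68.1 and 84.3). E2f8 (0.9 and 2.7) and E2f4 (10.1 and 7.3) did not. Of 6 other inhibitors and pocket proteins 2 passed, Cdkn2d, which encodes the inhibitor p19 (93.7 and 41.6), and the pocket protein gene Rbl1 (26.7 and 19.9), while Cdkn2a (0.5 and 0.9) and Cdkn2b (4.8 and 0.4) did not.

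The list of Cdk5 activators and of further kinases named as CDKs passed in 4 of 6 cases. Cdk5r2, a Cdk5 activator of neurons, had 114 in sample 1 and 74.7 in sample 2, and Cdk5r1, named outside the rule for named genes, had 99.1 and 66.1. Cdk16 had 3471 and 3960, and Cdk17 861 and 985. Cdk18 (1.1 and 9.1) and Cdk14 (11.6 and 23.1) were not above background in both.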

How the data were processed

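The deposited values are signal intensity, 1 value for a probe set on an array, made with GCOS, the Affymetrix software, per the submitters' processing notes. How it was set and scaled is not given in the sources used here. Values were used as deposited, and 0 was set to 0.1 before log2. Names came from the platform annotation, which gave 1 symbol for 34958, several for 932 and did not list 9211. All 39 measured genes kept their symbol in the RefSeq table.

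A gene took its brightest probe set by the mean of both samples. Of 107 background genes 96 were measured, and 3 of them exceeded the threshold in both samples. Counts are given without tests, since there is 1 group of 2 arrays, whose number limits the precision. Calculations used Python 3.11.15 and pandas 2.3.3 and were tested on simulated data. The genes and lists were chosen with earlier results of these data known. All 40 genes are named. Of the other cell cycle lists, up to 3 genes above background with the highest and 2 not above it with the lowest log2 intensity are named. A planned comparison of CDK protein sequences was not made. Alternatives were other thresholds, backgrounds, scalings and probe set summaries, and 1 sample alone.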

Additional observations from a re-analysis of the deposited data

How the results depend on the processing

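Of 15 genes above background, 9 passed at the 99th percentile threshold. With the olfactory receptor background 22 of 39 passed (56.4%), against 52.5% of all genes. With 1 sample alone 17 to 21 passed (43.6% in sample 1 and 53.8% in sample 2, against 53.3% and 48.6% of all genes). Of 22 probe sets, 11 passed at the 99th percentile and 12 without _x_at and _s_at probe sets, and 28 to 31 with 1 sample alone. The 72 other genes became 80 to 84 with 1 sample alone, where the share of all genes also rose. The 10 genes at least 2-fold apart became 4 with log2(value + 16), 3 at the 99th percentile and 21 with no background filter. The median log2 difference ranged from −0.14 to 0.49 over its alternatives. Quantile normalization and median scaling left these counts of 15, 22, 72 and 10 as they were. The thresholds were computed again after each scaling, so the calls behind 15, 22 and 72 could hardly change. No paired analysis was possible because the labels give 1 group. Ccne2, Mcm4, Pcna, Cdkn1a, Cdkn1b and Rb1 passed under all 9 alternatives. Most of these were laxer or left the calls nearly unchanged, so passing them adds little. The other genes above background were lost only at the 99th percentile, with probe sets averaged, or without _x_at and _s_at probe sets. Ccne2 and Pcna have 1 _at probe set each, so averaging or removing kinds did not change their values. The mean of all probe sets gives no count of probe sets. Values near the thresholds, where array signal is low, limit the calls.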
